A study of Mus musculus with 22 samples.

Results

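The bodies of very long genes on the mouse autosomes were examined for the level of 5-methylcytosine (5mC) from their 5′ to their 3′ end. The regions were the bins of 100 kb that lay wholly inside a protein-coding gene of at least 500 kb in the GENCODE M21 annotation of mm10, the mouse genome build GRCm38. There were 1658 such bins among the 24011 autosomal bins that had a level above 0 and below 1 in all 7 libraries. They came from 218 genes, with between 4 and 43 bins each (median 6), and none of them was lost to the filter on levels of 0 or 1. The genes were between 502 and 4435 kb long (median 733 kb), and 55 of them reached 1 Mb. The shortest of them, Edil3 (502 kb), had a mean 5mC level of 0.677 for cortex, 0.740 for olfactory bulb and 0.811 for cerebellum, and the longest gene left out, Pde1c (499 kb), had 0.734, 0.753 and 0.731. Of the bins, 1545 touched no second protein-coding gene and 13 lay in more than 1 of the 218 genes.

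The tissues were cortex, olfactory bulb and cerebellum of female C57BL/6 mice at 8 weeks of age, taken without any treatment. OxBS-seq, in which 5hmC is oxidized before the bisulfite step so that only 5mC is still read as C, was represented by 3 cortex libraries and by 2 each from olfactory bulb and cerebellum. TAB-seq, which reads 5-hydroxymethylcytosine (5hmC) instead, had 3 libraries for each tissue. Each library was made from whole tissue, so that a level is an average over neurons, glia and other cells, and a change in the mix of cells cannot be told apart from a change within a cell type. The deposited values are fractions with no read counts, and the study's text gives only an average coverage per tissue. The reads behind a bin are therefore unknown, and error was taken from the spread between libraries. In the limma fits that spread was shared over all genes or bins, fully for gene means and bins and in part for start minus end.

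Methylation of CpG sites is high across most of the mammalian genome and low at active promoters and CpG islands. In gene bodies it is laid down along with transcription, and in neurons part of it is oxidized by TET enzymes to 5hmC, which is abundant in the bodies of active neuronal genes. The longest genes of the genome are for the most part neuronal ones that encode adhesion molecules, ion channels, receptors and their scaffolds, and many of them hold alternative promoters far inside the gene.

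The sequences behind the strongest contrasts between start and end are shown for the 3 genes with the largest excess of 5mC at the start, Celf2, Schip1 and Nbea. For each gene the 200 bases with the most CpG sites outside annotated exons are printed from the bin with the highest level at the start and from the bin with the lowest level at the end. Here and throughout, each gene was divided into 3 equal parts by length, of which the one at the 5′ end is called its start and the one at the 3′ end its end, and a bin belongs to the part that holds its centre. All windows are given on the plus strand of GRCm38, and capitals mark the CpG sites. They show how the CpG sites of a high and of a low bin are packed. The Celf2 windows are chr2:7405166-7405365 (start, 16 CpG sites) and chr2:6872045-6872244 (end, 39 CpG sites). The Schip1 windows are chr3:68114772-68114971 (start, 16) and chr3:68525023-68525222 (end, 15), and the Nbea windows are chr3:56009350-56009549 (start, 13) and chr3:55787946-55788145 (end, 18).
Celf2 start: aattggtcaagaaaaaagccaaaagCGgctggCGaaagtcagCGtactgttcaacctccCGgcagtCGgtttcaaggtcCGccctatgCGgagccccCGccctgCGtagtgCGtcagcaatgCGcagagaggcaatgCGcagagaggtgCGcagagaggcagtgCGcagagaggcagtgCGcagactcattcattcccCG
Celf2 end: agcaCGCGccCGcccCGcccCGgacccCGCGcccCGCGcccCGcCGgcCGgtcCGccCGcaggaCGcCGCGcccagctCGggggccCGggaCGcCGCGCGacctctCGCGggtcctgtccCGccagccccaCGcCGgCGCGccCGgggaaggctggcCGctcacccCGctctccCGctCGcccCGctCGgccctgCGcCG
Schip1 start: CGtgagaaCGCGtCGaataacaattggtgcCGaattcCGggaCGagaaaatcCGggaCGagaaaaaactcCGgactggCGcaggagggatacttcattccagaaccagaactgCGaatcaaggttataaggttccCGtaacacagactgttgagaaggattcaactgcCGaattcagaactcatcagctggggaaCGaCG
Schip1 end: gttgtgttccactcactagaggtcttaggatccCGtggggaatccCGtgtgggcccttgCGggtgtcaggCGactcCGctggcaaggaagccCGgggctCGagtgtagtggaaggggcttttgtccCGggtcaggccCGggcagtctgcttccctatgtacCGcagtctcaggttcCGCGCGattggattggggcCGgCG
Nbea start: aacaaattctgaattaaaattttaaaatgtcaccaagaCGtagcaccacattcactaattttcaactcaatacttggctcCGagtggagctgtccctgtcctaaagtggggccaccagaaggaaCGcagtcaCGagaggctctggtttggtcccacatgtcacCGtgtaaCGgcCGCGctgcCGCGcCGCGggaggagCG
Nbea end: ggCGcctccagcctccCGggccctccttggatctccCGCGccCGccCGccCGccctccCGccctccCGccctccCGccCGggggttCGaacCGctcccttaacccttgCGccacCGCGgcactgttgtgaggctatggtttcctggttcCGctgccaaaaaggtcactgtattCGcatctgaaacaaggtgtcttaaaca
Over all autosomal bins the densest 200 bases of a bin, exons included, held a median of 15 CpG sites, and over the bins inside long genes the median was also 15. Counted in the same way, with exons, the start and end bins held 16 and 40 in Celf2, 16 and 15 in Schip1, and 13 and 22 in Nbea. The end bin of Celf2 therefore held a dense CpG cluster, that of Nbea was also above the median, and the other 4 bins were close to it. The bin around the Celf2 end window had a mean 5mC level of 0.351 for cortex, 0.269 for olfactory bulb and 0.416 for cerebellum, against 0.689, 0.727 and 0.820 in the bin around the start window. For Schip1 the levels were 0.477, 0.578 and 0.510 at the end against 0.699, 0.770 and 0.779 at the start. For Nbea they were 0.566, 0.626 and 0.472 against 0.639, 0.723 and 0.741. The genes were chosen for their start minus end, and the bins of Celf2 and Schip1 for their levels. In Nbea they were the only bins of the start and end parts. The values describe these bins without a test.

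The first comparison asked how 5mC inside long genes differed between the tissues and from the rest of the autosomes. The level was lowest in cortex, with 0.673, 0.675 and 0.652 in the 3 libraries (mean 0.667 ± 0.0125, SD, n = 3). It was 0.706 and 0.702 in olfactory bulb (0.704 ± 0.00263, n = 2) and 0.760 and 0.743 in cerebellum (0.751 ± 0.0119, n = 2). The libraries of the 3 tissues did not overlap. The difference from cortex was 0.0370 for olfactory bulb and 0.0847 for cerebellum, and each had the smallest p that 2 against 3 libraries allow (two-sided exact permutation test, p = 0.1). Cerebellum was above olfactory bulb by 0.0476 (two-sided exact permutation test, p = 0.33, and 2 against 2 libraries cannot give less). The differences were smaller with each library centred on its median over the autosomal bins. They were then 0.00365 for olfactory bulb against cortex (p = 0.2, exact permutation test), 0.0198 for cerebellum against cortex (p = 0.1, exact) and 0.0162 for cerebellum against olfactory bulb (p = 0.33, exact).

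All other autosomal bins had means of 0.675 for cortex, 0.705 for olfactory bulb and 0.731 for cerebellum. The bins inside long genes were thus below the others, with differences of -0.00880, -0.00940 and -0.00498 in the cortex libraries and -0.00143 and -0.000938 in olfactory bulb, but above them by 0.0208 and 0.0202 in cerebellum. Over the 7 libraries the mean difference was 0.00221, and it was not distinguishable from 0 (two-sided exact sign-flip permutation test, p = 0.641). The difference was larger in cerebellum than in cortex by 0.0282 (two-sided exact permutation test, p = 0.1) and than in olfactory bulb by 0.0217 (p = 0.33, exact), again the least that so few libraries can give.

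Long genes lay between shorter genes and the space between genes. Against the 2001 bins wholly inside shorter protein-coding genes, they were higher, and the excess was 0.00776 ± 0.00188 in cortex (SD, n = 3), 0.0167 ± 0.00103 in olfactory bulb (n = 2) and 0.0265 ± 0.000315 in cerebellum (n = 2). Against the 3312 bins that touched no gene they were lower, with differences of -0.0653 ± 0.00261, -0.0627 ± 0.00351 and -0.0445 ± 0.000895. Each of these contrasts had the same sign in 7 of 7 libraries (two-sided exact sign-flip permutation test, p = 0.0156, the smallest for 7 libraries). The bins inside long genes held a median of 624 CpG sites against 793 in the other bins, and a GC content of 39.6% against 41.6%. With both as covariates across bins, long genes were below the other bins in 7 of 7 libraries, with differences between -0.0320 and -0.00489 (p = 0.0156, exact sign-flip permutation test).

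**Figure D1:**
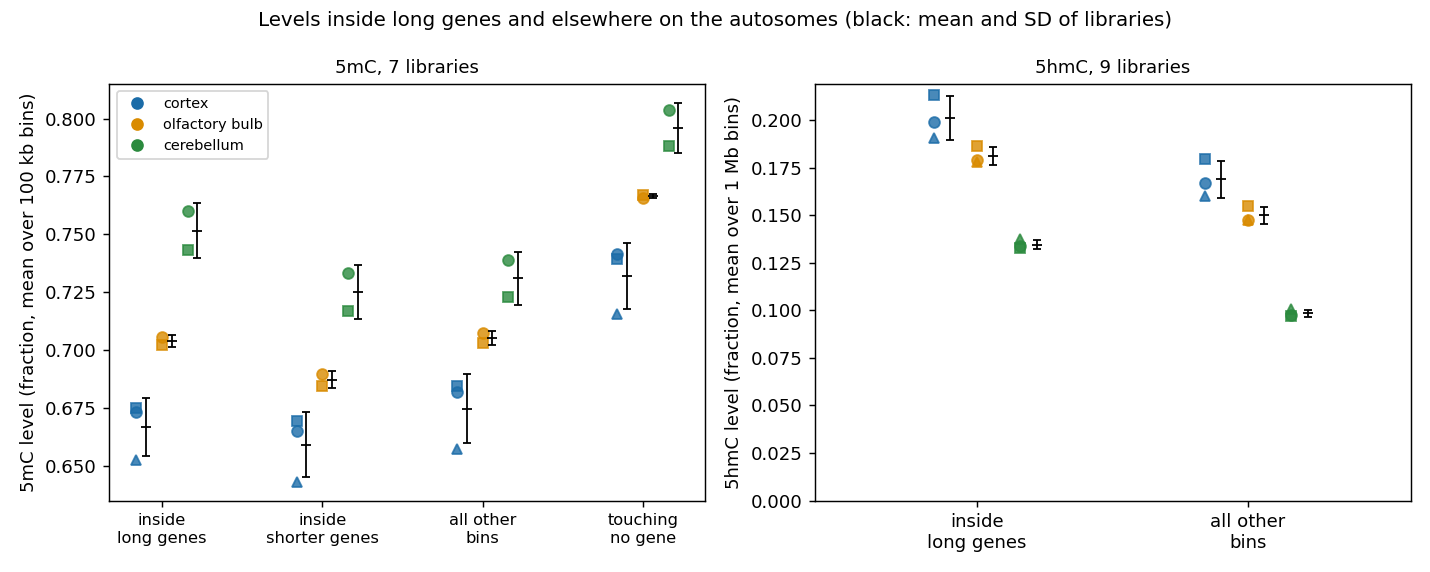
5mC (left, fraction, mean over 100 kb bins, axis not starting at 0) and 5hmC (right, fraction, mean over 1 Mb bins) inside long genes and in other autosomal bins. Each point is a library (circle, square and triangle for replicates 1, 2 and 3), and black bars give the mean and SD per tissue. 5mC inside long genes rises from cortex (0.667) to olfactory bulb (0.704) and cerebellum (0.751), and 5hmC goes the other way.

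At the edges of a long gene the level changed within a few bins. The last bin outside the 5′ end had a mean of 0.709, 0.708 and 0.684 in the cortex libraries, 0.734 and 0.731 in olfactory bulb, and 0.777 and 0.760 in cerebellum. The first bin wholly inside had 0.674, 0.675 and 0.654 in cortex, 0.705 and 0.702 in olfactory bulb, and 0.756 and 0.741 in cerebellum. The level outside was higher in every library, by 0.0199 ± 0.000950 in cerebellum, 0.0288 ± 0.000143 in olfactory bulb and 0.0322 ± 0.00253 in cortex. At the 3′ end the same step was 0.00648 ± 0.0000332, 0.0235 ± 0.000943 and 0.0242 ± 0.00173. Both steps were above 0 in 7 of 7 libraries (two-sided exact sign-flip permutation test, p = 0.0156). The step was smaller in cerebellum than in cortex at both ends, with differences of -0.0123 at the 5′ end and -0.0178 at the 3′ end (two-sided exact permutation test, p = 0.1). Of the bins followed beyond the 3′ end, only the nearest was higher in cerebellum. The next bins outward had means of 0.747 and 0.747 there, against 0.749 in the first bin inside. In cortex they had 0.686 and 0.686 against 0.667, and in olfactory bulb 0.716 and 0.715 against 0.699.

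The main question was whether 5mC changes from the start of a long gene to its end. For each gene the mean level of the bins at the start was compared with that of the bins at the end. In 72 genes 1 of these parts, or both, held a single bin. Averaged over the 218 genes, the start was at 0.668 for cortex, 0.705 for olfactory bulb and 0.752 for cerebellum, and the end at 0.668, 0.70 and 0.748. Start minus end was 0.000116, -0.00120 and 0.00160 in the cortex libraries, 0.00387 and 0.00516 in olfactory bulb, and 0.00414 and 0.00473 in cerebellum. The mean of the 7 libraries was 0.00263, above 0 in 6 of 7 (two-sided exact sign-flip permutation test, p = 0.0469). When 1 library was left out, p was between 0.0625 and 0.0938 for 6 of the 7 libraries, and 0.0312, the smallest that 6 libraries allow, without cortex replicate 2.

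This average difference was small and depended on how it was taken. The median over genes had the other sign in all 7 libraries (mean of the medians -0.00369, p = 0.0156, exact sign-flip permutation test), as fewer genes had the higher level at the start (between 92 and 107 per library) than at the end (between 111 and 126). The end was also richer in CpG sites, with a mean start minus end of -63.2 sites per bin, and in GC, with -0.541 percentage points. With both as covariates, start minus end was -0.00702 (p = 0.0156, exact). Across the 218 genes, Pearson's r between start minus end of 5mC and of GC content was -0.301 for cortex, -0.203 for olfactory bulb and -0.244 for cerebellum, where the points share libraries and are no independent replicates. In the 196 genes whose RefSeq model had a similar span, the mean difference was 0.000683 (p = 0.406, exact). Among the genes of at least 1 Mb it was 0.00616 (p = 0.0156, exact).

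The profile along the average gene was nearly flat. Each gene was divided into 5 equal parts from the 5′ to the 3′ end. The first and last parts held bins of 188 genes and the others of 218, so the parts do not average the same genes. The mean cortex level was 0.667, 0.670, 0.669, 0.669 and 0.666. In olfactory bulb it was 0.706, 0.706, 0.705, 0.70 and 0.70. In cerebellum it was 0.749, 0.756, 0.757, 0.746 and 0.747. In cortex and olfactory bulb these means lay closer together than the levels on either side of an edge, whereas in cerebellum they spread more than the step at the 3′ edge. Start minus end was larger than in cortex by 0.00434 in olfactory bulb and by 0.00426 in cerebellum, with no overlap between libraries in either case (two-sided exact permutation test, p = 0.1, and 2 against 3 libraries cannot give less). The first of these differences was 0.00238 in genes of at least 1 Mb, 0.00215 for the first against the last of 5 equal parts and 0.000605 as a median (p = 0.2, 0.5 and 0.8, exact permutation test). The second was -0.000696 with 5 equal parts and 0.00324 as a median (p = 0.7 and 0.3, exact). Cerebellum and olfactory bulb differed by -0.0000789, less than the spread between libraries (p = 1, exact permutation test).

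**Figure D2:**
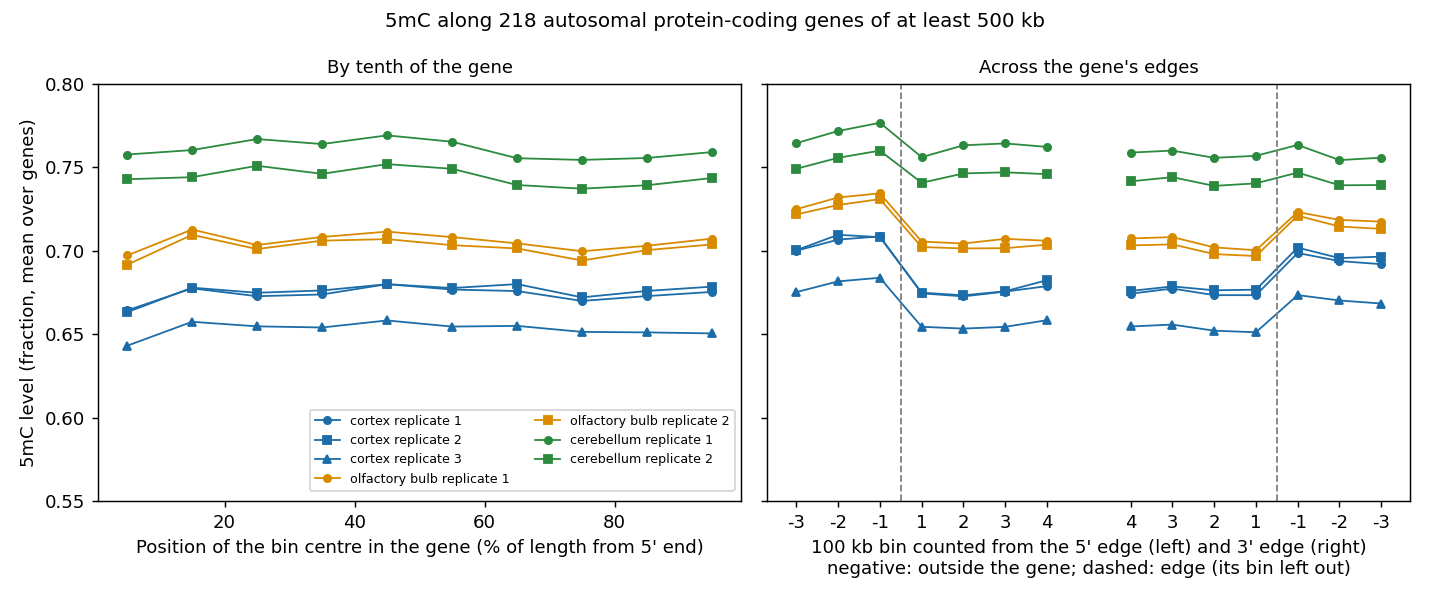
Mean 5mC level (fraction, axis not starting at 0) along the long genes in each of the 7 libraries, in 10 equal parts of the gene (left) and by 100 kb bin on either side of the 5′ and 3′ edges (right, negative numbers outside, the bin that holds the edge left out). The first and last of the 10 parts average 69 and 72 genes, and the other parts 164 to 169. The lines are nearly level inside the gene and step up outside it in cortex and olfactory bulb. In cerebellum they step up outside the 5′ edge, but outside the 3′ edge only the nearest bin is higher.

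The flat average covered large and opposite gradients in single genes. Over the genes start minus end lay between -0.237 and 0.269 in cerebellum, between -0.160 and 0.266 in olfactory bulb and between -0.0995 and 0.182 in cortex. Its SD over genes was 0.0469 ± 0.000925 in cortex (SD, n = 3), 0.0577 ± 0.00120 in olfactory bulb (n = 2) and 0.0645 ± 0.000737 in cerebellum (n = 2). The spread of gradients was thus wider in cerebellum than in cortex by 0.0177 and in olfactory bulb by 0.0108, with no overlap of libraries (two-sided exact permutation test, p = 0.1). With limma, 171 of the 218 genes had a start that differed from the end over the mean of the tissues at an adjusted p under 0.05. Of these, 76 were higher at the start and 95 at the end. Among all 273 protein-coding genes that could be fitted (at least 4 bins inside), 78.8% passed, 31.9% with the higher start and 46.9% with the lower. The long genes made up most of that background, so their count is not a result about them alone. The standard error of start minus end was between 0.00347 and 0.00720 per gene. In all 7 libraries the start was above the end in 49 genes (background 20.1%) and below it in 61 (background 30%).

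**Figure D3:**
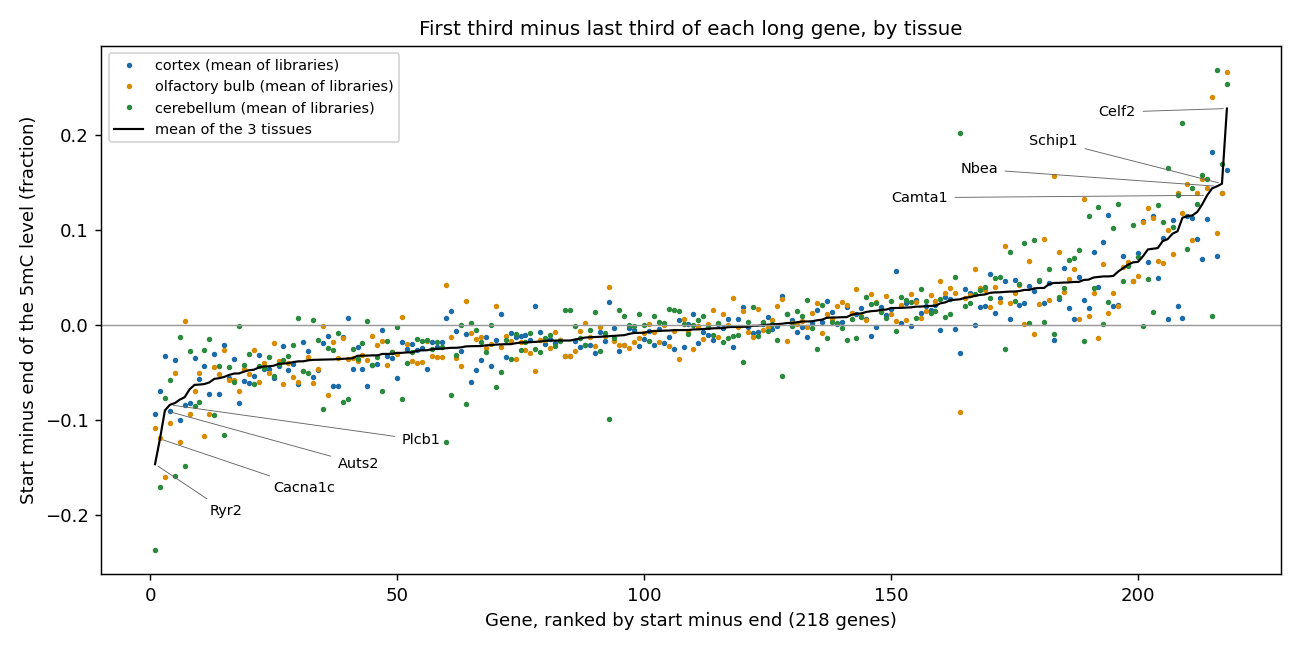
Start minus end of the 5mC level (fraction) for the 218 long genes, ranked by the mean of the 3 tissues (black line), with points for the mean of each tissue's libraries. The line spans -0.146 in Ryr2 to 0.228 in Celf2 with more genes below 0 than above, and points far from it are genes whose gradient differs between tissues.

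Among the genes with the same sign in all 7 libraries, the largest excess at the start was that of Celf2, which encodes an RNA-binding regulator of alternative splicing (chr2:6539694-7509563, minus strand). Start minus end of Celf2 was 0.180, 0.152 and 0.157 in cortex, 0.265 and 0.268 in olfactory bulb, and 0.252 and 0.257 in cerebellum. All libraries were far above 0, with the cortex libraries below those of the other tissues. The mean of the tissues was 0.228 (SE 0.00433, limma, adjusted p = 1.73e-11). The gene did not slope evenly. The level in cerebellum stayed between 0.702 and 0.820 over the first 6 bins and fell to 0.416 in the bin centred 660 kb from the 5′ end, the bin with the dense CpG window printed above. That bin held 4 annotated starts of shorter protein-coding transcripts of Celf2, and so did the next, at 0.593. A bin near the start with 3 such starts stayed at 0.789 in cerebellum. In olfactory bulb it was lower than its neighbours (0.528 against 0.727 and 0.602). In cortex it was at 0.536, below the bin before it (0.689) but close to the next (0.542), with which its libraries overlapped. In the RefSeq model the gene is 857 kb long, against 970 kb in GENCODE, so the start and end of Celf2 rest on the longer model.

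Schip1, whose product binds the schwannomin protein, had differences of 0.139, 0.113 and 0.164 in cortex, 0.132 and 0.145 in olfactory bulb, and 0.180 and 0.158 in cerebellum (mean of tissues 0.149, SE 0.00598, limma, adjusted p = 2.76e-09). The tissues overlapped, and no pair of them passed the test of a difference in this gradient (limma, adjusted p between 0.105 and 0.998). Its 3′ bins are shared with Iqschfp, a read-through gene over Iqcj and Schip1, so the value of 0.116 for Iqschfp is not a separate observation. Nbea, which encodes the synaptic trafficking protein neurobeachin, had 0.0742, 0.0686 and 0.0751 in cortex, 0.0767 and 0.118 in olfactory bulb, and 0.286 and 0.251 in cerebellum (mean of tissues 0.146, SE 0.00576, limma, adjusted p = 2.76e-09). The cerebellum libraries stood well apart from the rest. Nbea had only 4 bins inside it, with a single bin in the start part and a single bin in the end part. The low bin at its end also touched a second protein-coding gene.

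Camta1, a calmodulin-binding transcription activator, was close behind with differences between 0.0996 and 0.118 in cortex, 0.156 and 0.133 in olfactory bulb, and 0.165 and 0.144 in cerebellum (mean of tissues 0.137, SE 0.00467, limma, adjusted p = 1.05e-09). Its level was near that of the start over the first 6 bins and dropped in the bin centred 712 kb from the 5′ end, to 0.517 for cortex, 0.480 for olfactory bulb and 0.503 for cerebellum. That bin again held internal transcript starts, 3 in number. The other genes in the group of 8 were Psd3, an exchange factor for the Arf6 GTPase, Pde4d, a cAMP phosphodiesterase, and Zbtb20, a zinc finger transcription factor, with means of 0.127, 0.119 and 0.115. For Camta1 and Pde4d, as for Celf2, the RefSeq model differs from the GENCODE one by more than 100 kb.

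At the other end of the ranking stood Ryr2, the calcium release channel of the endoplasmic reticulum (chr13:11553102-12106945, minus strand). Its start minus end was -0.0945, -0.0753 and -0.110 in cortex, -0.113 and -0.104 in olfactory bulb, and -0.237 and -0.236 in cerebellum. Here too every library had the same sign and cerebellum stood apart (mean of tissues -0.146, SE 0.00460, limma, adjusted p = 7.87e-10). Unlike in Celf2, the level changed step by step. In cerebellum it rose over the 5 bins from 0.512 to 0.596, 0.692, 0.738 and 0.791, and in cortex from 0.604 to 0.616, 0.664, 0.686 and 0.703. Only the last of these bins lay in the end part.

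Cacna1c, the pore-forming subunit of an L-type calcium channel, had -0.0713, -0.0647 and -0.0719 in cortex, -0.115 and -0.124 in olfactory bulb, and -0.176 and -0.164 in cerebellum (mean of tissues -0.119, SE 0.00372, limma, adjusted p = 7.87e-10). The 3 tissues did not overlap, and each pair differed in this gradient (limma, adjusted p between 7.83e-06 and 0.00243). The start part of Cacna1c held a single bin. Auts2, a regulator of transcription in developing neurons, followed with a mean of -0.0895 (SE 0.00490, limma, adjusted p = 3.71e-08), and its gradient was by far steepest in olfactory bulb, as described further down. The rest of this group were Plcb1, a phospholipase C of receptor signalling (-0.0837), Grik2, a kainate receptor subunit (-0.0819), Kalrn, the kalirin protein of dendritic spines (-0.0783), A830018L16Rik (-0.0673) and Ctnnd2, the neuronal delta-catenin (-0.0627).

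**Figure D4:**
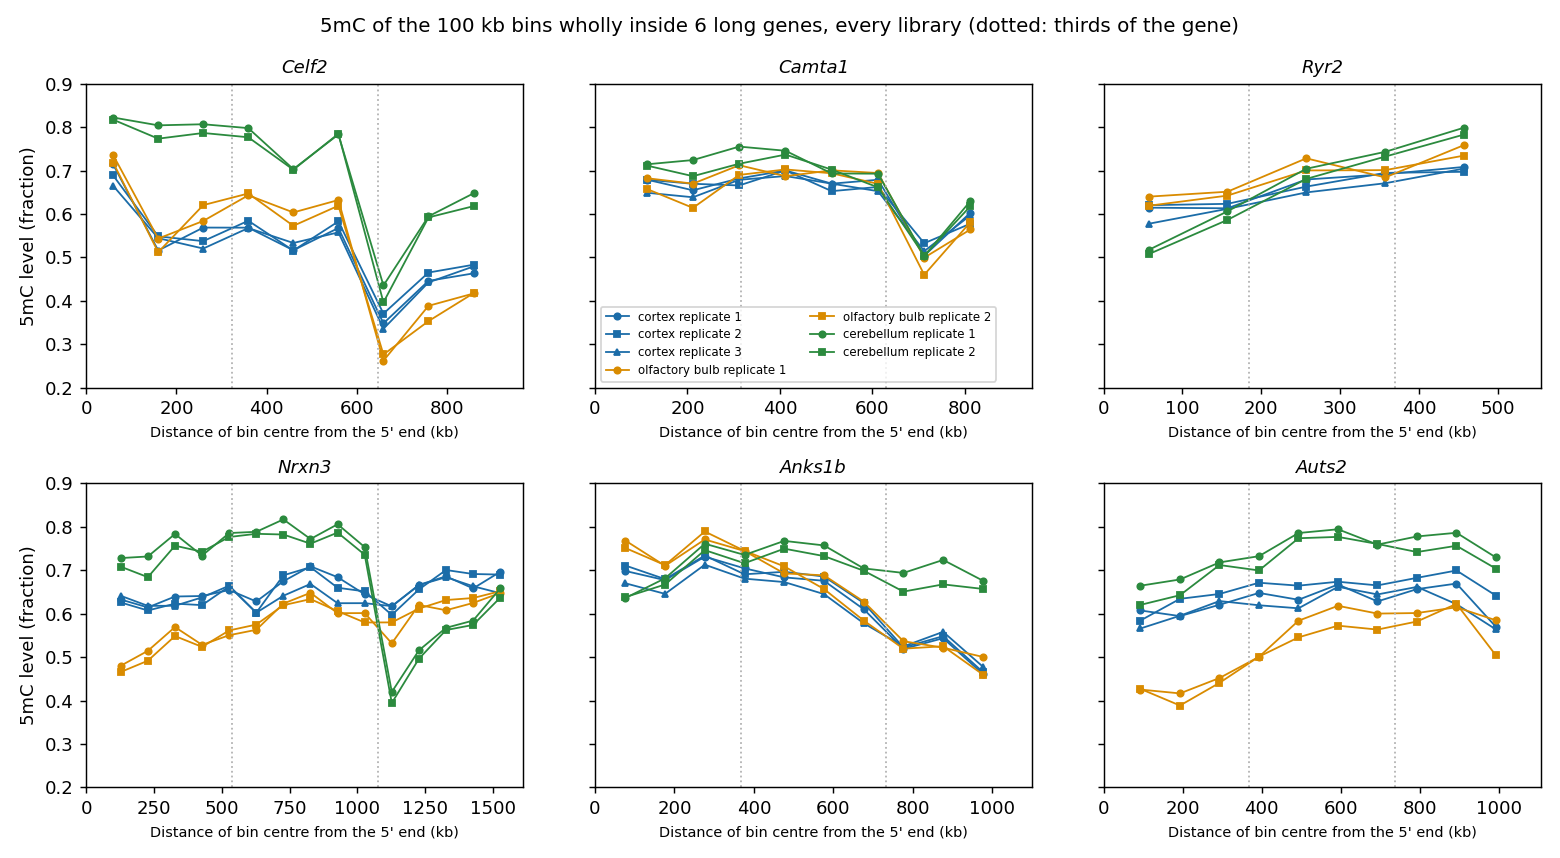
5mC level (fraction, axis not starting at 0) of each 100 kb bin inside 6 long genes against the distance of its centre from the 5′ end in kb, 1 line per library, with dotted lines at the borders between the 3 equal parts. Celf2 and Camta1 drop in all tissues, Nrxn3 only in cerebellum (from 0.745 to 0.407), and Anks1b in cortex and olfactory bulb.

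Genes of related function were described by lists, each given beside all 218 long genes, of which 76 were higher at the start and 95 at the end with a median of -0.00466. Of the 13 ion channels and their partners, 2 were higher at the start and 10 at the end (median -0.0316). Besides Ryr2 and Cacna1c the end was higher in the potassium channels Kcnma1 (-0.0601) and Kcnq5 (-0.0301), and the 2 exceptions were Fgf12, a partner of sodium channels (0.0445), and the cation channel Trpm3 (0.0566). Of the 7 glutamate and GABA receptors, none was higher at the start and 5 were higher at the end (median -0.0247). They included the delta receptor Grid1 (-0.0468) and the metabotropic receptors Grm5 (-0.0291) and Grm8 (-0.0247), whereas Grm7 had a value of -0.00319 that did not pass.

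Transcription factors and chromatin genes counted the other way. Of the 12, 8 were higher at the start and 2 at the end (median 0.0194). Zbtb20 (0.115), Foxp1 (0.0503) and Sox5 (0.0182), a developmental factor of the Sox family, were higher at the start, and Auts2 (-0.0895) was higher at the end. The 39 adhesion molecules and synapse organizers were split, with 15 higher at the start, 17 at the end and 7 that did not pass (median -0.00599). Csmd1 (-0.0319), the teneurin Tenm4 (-0.0387), the catenin Ctnna2 (-0.0285) and Nrg3 (-0.0141) were higher at the end. Within this list the IgLON proteins Ntm (0.113), Lsamp (0.0662) and Opcml (0.0451) were higher at the start and their relative Negr1 (-0.0563) at the end.

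Of the 6 receptor-type tyrosine phosphatases, 2 were higher at the start and 4 at the end (median -0.0269), with Ptprd at 0.0519 and Ptprg, Ptprm and Ptprk between -0.0432 and -0.0356. The axon guidance genes counted 2 and 4 of 7 (median -0.0149), with the netrin receptor Dcc at -0.0301 and its relative Unc5d at 0.0264. The kinases and signalling enzymes counted 4 and 3 of 7 (median 0.0110), the RNA-binding proteins 2 and 1 of 4 (median 0.0162), and the very large fragile-site genes 8 and 6 of 17 (median 0.00823). In the last list the scaffold protein Dlg2 (0.0667) was higher at the start. None of these lists was tested against the others. Fgf12 and Trpm3 as exceptions, and the IgLON family, were singled out after their values had been seen.

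The drops in Celf2 and Camta1 led to a look at transcripts that start inside the gene, which was added after the values had been seen. Of the pairs of a bin and a gene, 262 held the annotated start of a protein-coding transcript of that gene, in 136 genes. In the 135 genes with bins of both kinds, the bins with an internal start had a mean level of 0.649 ± 0.0107 in cortex (SD, n = 3), 0.679 ± 0.00533 in olfactory bulb (n = 2) and 0.730 ± 0.0120 in cerebellum (n = 2). The other bins of the same genes had 0.669, 0.701 and 0.751. The difference was between -0.0240 and -0.0176 in the 7 libraries (two-sided exact sign-flip permutation test, p = 0.0156). The bins with an internal start were lower in all 7 libraries in 57 genes and higher in all 7 in 11. No background share over shorter genes stands beside these counts. The 135 genes include Celf2 and Camta1, whose drops prompted the look, so the difference is in part a restatement of them. The bins with an internal start also held more CpG sites, 776 against 702 per bin on average, and the part of this in the difference was not tested. Of the 76 genes with the higher start, 37 (48.7%) had an internal transcript start in the end part, against 28 of 95 genes (29.5%) with the higher end and 11 of the 47 genes (23.4%) that did not pass. In the start part the shares were 32.9%, 27.4% and 12.8%.

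The gradients also differed between tissues. By the limma test of the difference itself, start minus end differed between olfactory bulb and cortex in 53 genes (background 24.5% of 273 genes), between cerebellum and cortex in 93 (background 46.9%), and between cerebellum and olfactory bulb in 74 (background 35.9%). It was larger in olfactory bulb than in cortex in 31 and smaller in 22 (background 12.1% and 12.5%), larger in cerebellum than in cortex in 54 and smaller in 39 (background 25.3% and 21.6%), and larger in cerebellum than in olfactory bulb in 35 and smaller in 39 (background 16.5% and 19.4%). The shares of the long genes were close to the background in each case. In 19 genes whose gradient passed this test the sign itself was opposite between every library of cerebellum and of cortex (background 8.79%), with the start above the end in cerebellum in 10 and in cortex in 9 (background 5.13% and 3.66%). This was so in 10 genes for olfactory bulb and cortex (background 4.76%), 5 in each direction (background 1.83% with the start above the end in olfactory bulb and 2.93% with the reverse). For cerebellum and olfactory bulb it was so in 21 genes (background 10.6%), with the start above the end in cerebellum in 6 and in olfactory bulb in 15 (background 3.66% and 6.96%).

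Nrxn3, a presynaptic neurexin on chromosome 12, had the widest difference between tissues. Its start minus end was -0.0284, -0.0392 and -0.0196 in cortex, -0.0779 and -0.104 in olfactory bulb, but 0.203 and 0.201 in cerebellum. The gradient in cerebellum was thus opposite to that of the other 2 tissues, by 0.231 against cortex (SE 0.0105, limma, adjusted p = 1.34e-07) and by 0.293 against olfactory bulb (SE 0.0115, limma, adjusted p = 3.03e-08). In cerebellum the level was between 0.708 and 0.80 over the first 10 bins and then 0.407 in the next, which is chr12:89800001-89900000. The libraries in that bin were 0.420 and 0.394 in cerebellum, against 0.617, 0.597 and 0.617 in cortex and 0.532 and 0.580 in olfactory bulb. From there the cerebellum level rose again to 0.648 in the last bin. In olfactory bulb the low part was the first bin, at 0.473.

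Anks1b, a scaffold protein of the postsynaptic density, showed the reverse. Its start minus end was 0.194, 0.196 and 0.156 in cortex and 0.230 and 0.249 in olfactory bulb, but -0.00503 and 0.0254 in cerebellum. The difference was -0.172 between cerebellum and cortex (SE 0.0142, limma, adjusted p = 5.29e-06) and -0.230 between cerebellum and olfactory bulb (SE 0.0156, limma, adjusted p = 1.51e-06). From the first bin to the last the level went from 0.693 to 0.468 in cortex and from 0.760 to 0.480 in olfactory bulb, whereas it went from 0.637 to 0.667 in cerebellum. In the first bin cerebellum was therefore the lowest tissue and in the last the highest. Over the mean of the tissues the gradient of Anks1b was 0.144, as large as that of Nbea, but it did not have the same sign in all libraries.

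Ntm, the cell adhesion molecule neurotrimin, had nearly the same mean level in the 3 tissues (0.588 ± 0.0130, 0.601 ± 0.0107 and 0.594 ± 0.00497) but different gradients. Start minus end was -0.00302, 0.0147 and 0.0117 in cortex, 0.104 and 0.132 in olfactory bulb, and 0.213 and 0.214 in cerebellum, with no overlap. Olfactory bulb exceeded cortex by 0.110 and cerebellum exceeded cortex by 0.205 (limma, adjusted p = 4.81e-05 and 2.41e-07). In cerebellum the level of Ntm fell from 0.757 in the first bin to 0.412 in the sixth.

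Nbea and Ryr2 owed much of their rank to cerebellum. The gradient of Nbea was larger there than in cortex by 0.196 (limma, adjusted p = 1.65e-06), and that of Ryr2 was more negative (difference -0.143, limma, adjusted p = 3.34e-06). In Syne1, which encodes the nuclear envelope protein nesprin, start minus end was -0.122 in both cerebellum libraries, against 0.0118, 0.0280 and -0.0182 in cortex and 0.0352 and 0.0506 in olfactory bulb (cerebellum minus cortex -0.129, limma, adjusted p = 2.03e-05). Only 1 bin of Syne1 lay in the start part, chr10:5400001-5500000. It stood at 0.455 and 0.433 in cerebellum, against 0.652, 0.674 and 0.621 in cortex and 0.678 and 0.676 in olfactory bulb. Smyd3, a lysine methyltransferase, had the larger gradient in cerebellum than in olfactory bulb by 0.138 (limma, adjusted p = 9.48e-06).

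Olfactory bulb had gradients of its own. In Fgf12 start minus end was 0.146 and 0.168 in olfactory bulb, against -0.0125, -0.0253 and -0.00722 in cortex and 0.0000691 and -0.0174 in cerebellum. The difference from cortex was 0.172 (SE 0.0106, limma, adjusted p = 2.84e-06) and that of cerebellum from olfactory bulb -0.166 (limma, adjusted p = 1.70e-06). The start part of Fgf12 held a single bin. In Auts2 the start was at 0.431 and 0.419 in olfactory bulb, against 0.607, 0.621 and 0.597 in cortex and 0.687 and 0.658 in cerebellum. The end was closer between tissues, at 0.60 and 0.569 in olfactory bulb and 0.632, 0.675 and 0.616 in cortex. Start minus end of Auts2 was lower in olfactory bulb than in cortex (difference -0.128, SE 0.0116, limma, adjusted p = 4.47e-05). Elmo1, an activator of Rac signalling, had a larger gradient in olfactory bulb than in cortex by 0.119, and Nav2, the neuron navigator 2, and Hdac9, a histone deacetylase, had smaller ones (-0.103 and -0.0734; limma, adjusted p between 1.86e-05 and 0.000494 for the 3 genes).

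Genes as a whole differed more than the parts of a gene. Of the variance between bins inside long genes, 62.9% ± 2.18 lay between genes in cortex (SD, n = 3), 67.1% ± 1.48 in olfactory bulb (n = 2) and 64.9% ± 0.0343 in cerebellum (n = 2). The SD between gene means was 0.0476 for cortex, 0.0589 for olfactory bulb and 0.0624 for cerebellum, and the mean SD between the bins of a gene was 0.0319, 0.0343 and 0.0359. Neighbouring bins differed on average by 0.0338, 0.0347 and 0.0349, and the range within a gene averaged 0.0905, 0.0969 and 0.10. The bins of Celf2 varied most (SD 0.125, mean of tissues), followed by those of Ank3, the ankyrin G of the axon initial segment (0.0977), and Schip1 (0.0966). The most even genes were Lhfpl3 (0.0113), Fam155a (0.0121) and B3galt1, a galactosyltransferase (0.0121).

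Gene means lay between 0.547 and 0.832 in cerebellum, between 0.522 and 0.811 in olfactory bulb and between 0.523 and 0.781 in cortex. The highest levels were found in Cpq, a carboxypeptidase (0.781 ± 0.0145 in cortex, 0.811 ± 0.00417 in olfactory bulb, 0.817 ± 0.00613 in cerebellum), Stpg2 and Iqcm. The lowest means over the tissues were those of Nav2 (0.552), Ank2, an ankyrin of neuronal membranes (0.558), and Celf2 (0.585). Across genes the mean level had Pearson's r of -0.313, -0.391 and -0.330 with GC content in the 3 tissues and between -0.0863 and -0.00111 with gene length, as a description over 218 genes that share libraries.

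The longest genes were followed along many bins. Ptprd (2271 kb, 22 bins), a receptor phosphatase of synapses, had 0.620 ± 0.0118 for cortex, 0.745 ± 0.00218 for olfactory bulb and 0.768 ± 0.0124 for cerebellum, with start minus end of 0.020, 0.0335 and 0.102. Lsamp (2197 kb, 21 bins), an adhesion molecule of the limbic system, was similar, with start minus end of 0.0463 for cortex, 0.0464 for olfactory bulb and 0.106 for cerebellum. Its cerebellum level went from 0.824 in the bin centred 1466 kb from the 5′ end to 0.644 in the next one. Cntnap2 (2245 kb, 22 bins), a neurexin-like protein of axons, was nearly even in each tissue, with start minus end of 0.0197, 0.0149 and 0.0141. Gm20388 (4435 kb, 43 bins) is a read-through model over many genes and differed little between tissues, at 0.581, 0.592 and 0.586.

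Tissue differences in the mean level of a gene were tested with limma on the log2 ratio of methylated to unmethylated signal, log2(level/(1 - level)). Of the 218 genes, 165 differed between olfactory bulb and cortex, 202 between cerebellum and cortex and 174 between cerebellum and olfactory bulb (background 75.1%, 91.2% and 78.8% of 273 genes). Cerebellum was above cortex in 194 genes and below it in 8 (background 86.4% and 4.76%), and olfactory bulb was above cortex in 150 and below it in 15 (background 67.8% and 7.33%). Cerebellum was above olfactory bulb in 159 and below it in 15 (background 70% and 8.79%). All 218 genes had the same standard error within a comparison, 0.0790 for those with cortex and 0.0866 for cerebellum against olfactory bulb. An adjusted p therefore does not reflect a gene's own spread. As the level shifted over the whole genome, each library was also centred on its median, after which cerebellum was above cortex in 136 genes and below it in 54 (background 60.1% and 27.5%), olfactory bulb above cortex in 88 and below it in 58 (background 38.8% and 28.2%), and cerebellum above olfactory bulb in 117 and below it in 56 (background 53.1% and 27.8%).

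By 100 kb bins, 1403 of the 1658 bins inside long genes were higher in cerebellum than in cortex (84.6%, background 76.2% of 24011 bins) and 70 lower (background 3.81%). Cerebellum was higher than olfactory bulb in 984 (59.3%, background 36.9%) and lower in 113 (background 6.41%). Olfactory bulb was higher than cortex in 861 (51.9%, background 38.6%) and lower in 93 (background 2.21%). The median log2 ratio over these bins was 0.67 for cerebellum against cortex, 0.37 for cerebellum against olfactory bulb and 0.29 for olfactory bulb against cortex, compared with 0.45, 0.21 and 0.23 over all bins. In either direction 954 bins differed between olfactory bulb and cortex, 1473 between cerebellum and cortex and 1097 between cerebellum and olfactory bulb (background 40.8%, 80.1% and 43.3%). Bins of 1 gene are not independent. After centring, 772 bins were higher and 257 lower in cerebellum than in cortex (46.6% and 15.5%, background 17.4% and 23.9%). Against olfactory bulb 586 were higher and 251 lower in cerebellum (35.3% and 15.1%, background 16.4% and 20.6%), and 351 were higher and 248 lower in olfactory bulb than in cortex (21.2% and 15.0%, background 8.85% and 10.5%).

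The largest rises in cerebellum over cortex were in Kalrn, Csmd1, Plcb1 and Celf2. Kalrn was at 0.569, 0.586 and 0.557 in cortex and 0.576 and 0.571 in olfactory bulb, but at 0.792 and 0.766 in cerebellum, so that cortex and olfactory bulb overlapped and cerebellum did not (log2 ratio 1.41 over cortex, limma, adjusted p = 1.26e-60). Plcb1 had the same order, with means of 0.604 ± 0.00375, 0.595 ± 0.000971 and 0.774 ± 0.0148. In Csmd1, which encodes a large membrane protein with complement control domains, cortex alone was low (0.604 ± 0.00892), with 0.732 ± 0.00174 in olfactory bulb and 0.780 ± 0.010 in cerebellum.

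Few genes were lower in cerebellum. Syne1 was at 0.559 and 0.536 in cerebellum against 0.651, 0.659 and 0.635 in cortex and 0.665 and 0.662 in olfactory bulb (log2 ratio -0.61 against cortex, limma, adjusted p = 4.91e-14). Car10, a carbonic anhydrase related protein, was at 0.549 ± 0.00867 against 0.635 ± 0.00984 and 0.690 ± 0.00419. The adhesion molecule Kirrel3 (0.570 against 0.637 in cortex) and Cadps2, a factor of vesicle release (0.648 against 0.706), were lower as well. Against olfactory bulb the largest fall was in Rims1, a protein of the presynaptic active zone, with 0.598 and 0.583 in cerebellum and 0.747 and 0.738 in olfactory bulb (log2 ratio -1.0, limma, adjusted p = 5.08e-28).

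Olfactory bulb was below cortex in Cacna1c, Auts2, Adarb2 and Cdk14. Cacna1c was at 0.534 and 0.511 there, against 0.635, 0.639 and 0.620 in cortex and 0.623 and 0.595 in cerebellum (log2 ratio -0.65, limma, adjusted p = 1.47e-14). Auts2 was at 0.540 and 0.515 against 0.629, 0.656 and 0.618 in cortex, and at 0.743 and 0.719 in cerebellum. Cerebellum exceeded olfactory bulb most in Auts2 (by 0.203), Kalrn (by 0.205), Cdk14, a cyclin-dependent kinase (by 0.196), and Robo2, a receptor for Slit guidance cues (by 0.180). The model of Robo2 is 520 kb long in GENCODE and 1555 kb in RefSeq, so these bins cover a part of the longer model. The largest rises in olfactory bulb over cortex were in Csmd1 (0.128), Ptprd (0.125), Nrg3, a neuregulin (0.123), and Foxp1 (0.123).

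**Figure D5:**
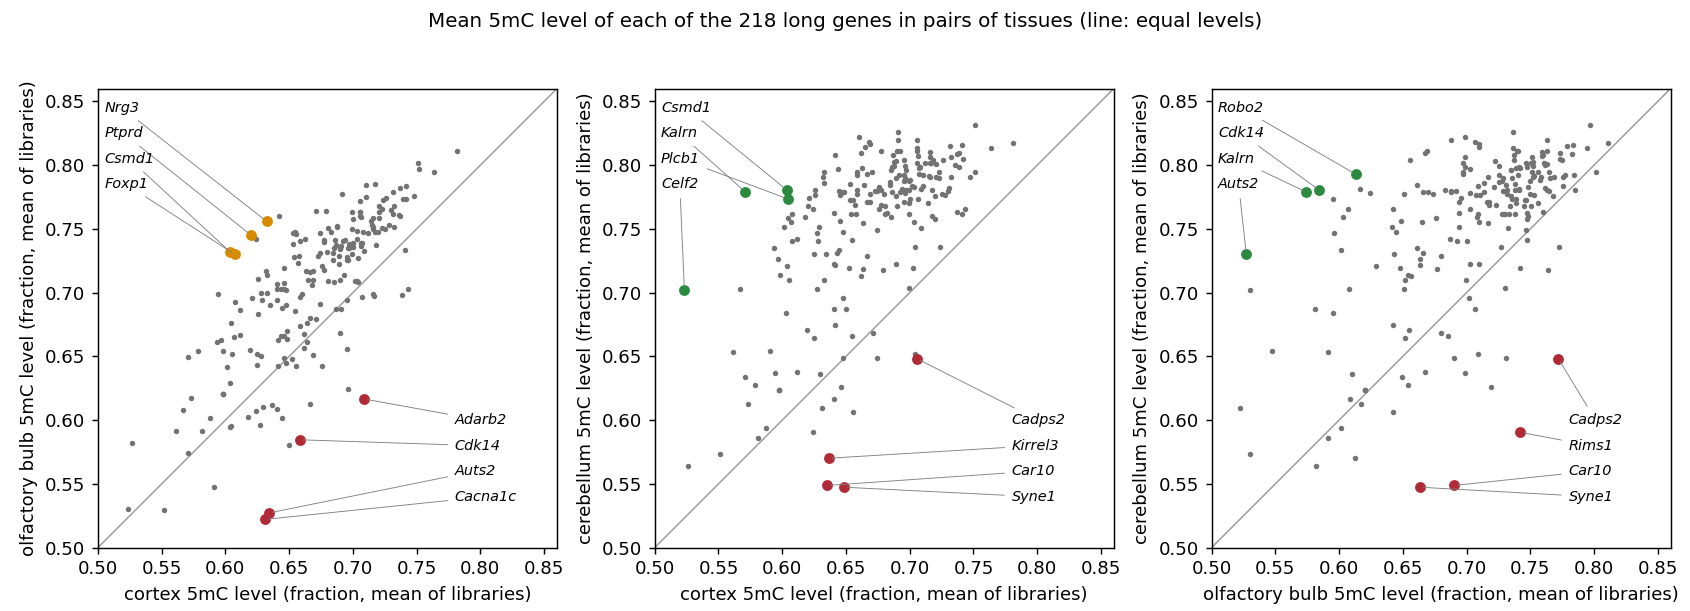
Mean 5mC level (fraction, mean of libraries, axes not starting at 0) of the 218 long genes in pairs of tissues, with the line of equal levels and the 4 genes with the largest rise and fall of each pair coloured. Most genes lie above the line in each panel, and the few below it include Cacna1c and Auts2 for olfactory bulb and Syne1 and Car10 for cerebellum.

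Lists of cell type genes were set beside these differences. Of 11 long genes known from cerebellar granule and Purkinje cells, 5 were higher and 4 lower in cerebellum than in olfactory bulb, with a median difference of -0.00469. Over all long genes 159 of 218 were higher (72.9%) and 15 lower, with a median of 0.0477. Against cortex the list was closer to the long genes as a whole, with 7 higher and 2 lower in cerebellum (median 0.0738), compared with 194 and 8 of 218 (median 0.0869). The 4 that were lower than in olfactory bulb were Cadps2 (-0.124), Fgf14, a partner of sodium channels (-0.0938), Rora, the nuclear receptor of Purkinje cells (-0.0415), and the potassium channel Kcnd2 (-0.0362). Ptprm (0.154) and Dab1 (0.0870), an adaptor of reelin signalling, were higher. Of the 7 genes of olfactory bulb interneurons, 6 were higher in cerebellum than in olfactory bulb and none lower (median 0.0899), with Auts2 and Robo2 at the top and the receptor Erbb4 at 0.104. In olfactory bulb against cortex 3 of these were higher and 2 lower (median 0.0226). The 7 genes of cortical excitatory neurons were all higher in olfactory bulb than in cortex (median 0.0556), compared with 150 of 218 long genes (68.8%, median 0.0392). How far the mix of cells enters these values was not tested.

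Single bins with some of the widest tissue differences were also looked at. Their adjusted p rests on the standard error shared by all bins and not on the spread of the bin itself. A bin of Kalrn, chr16:34200001-34300000, rose from 0.539, 0.526 and 0.503 in cortex to 0.825 and 0.796 in cerebellum (log2 ratio 1.97, SE 0.12, limma, adjusted p = 5.72e-57). A bin of Auts2, chr5:132300001-132400000, was at 0.416 and 0.389 in olfactory bulb against 0.594, 0.634 and 0.595 in cortex (log2 ratio -1.20, limma, adjusted p = 1.43e-20). In Fgfr2, a fibroblast growth factor receptor, the bin chr7:132700001-132800000 was at 0.369 and 0.339 in cerebellum against 0.644 and 0.598 in olfactory bulb (log2 ratio -1.59, limma, adjusted p = 5.29e-31). GENCODE gives Fgfr2 a span of 2961 kb and RefSeq 104 kb, so this bin lies inside the gene only by the longer model.

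5hmC was deposited in bins of 1 Mb, of which 21 of 2413 on the autosomes lay wholly inside a long gene, in 15 genes. In these bins 5hmC was 0.199, 0.213 and 0.191 in cortex (0.201 ± 0.0115, SD, n = 3), 0.179, 0.186 and 0.178 in olfactory bulb (0.181 ± 0.00465) and 0.134, 0.133 and 0.137 in cerebellum (0.135 ± 0.00244). The tissues did not overlap, with differences from cortex of -0.0198 for olfactory bulb and -0.0663 for cerebellum (two-sided exact permutation test, p = 0.1, and 3 against 3 libraries cannot give less). The order was thus the reverse of that of 5mC, which was 0.646, 0.690 and 0.722 in the same bins. In the 58 bins that long genes covered over at least 80%, the difference was -0.0125 for olfactory bulb (p = 0.2, exact permutation test) and -0.0717 for cerebellum (p = 0.1, exact). With each library centred on its median over the autosomes, the differences in the 21 bins had the other sign, 0.00166 and 0.0137. Long genes held more 5hmC than the other bins in 9 of 9 libraries, by 0.0362 ± 0.000661 in cerebellum, 0.0311 ± 0.000775 in olfactory bulb and 0.0320 ± 0.00176 in cortex (two-sided exact sign-flip permutation test, p = 0.00391, the smallest for 9 libraries).

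Single bins departed from this order. Cortex was above cerebellum in 20 of the 21 bins, and the exception was the bin of Rbfox1, a neuronal splicing factor, with 0.259, 0.263 and 0.268 in cerebellum against 0.223, 0.239 and 0.220 in cortex. Olfactory bulb was above cerebellum in 18 of the 21 and below it in Rbfox1, in the 3′ bin of Ptprd and, by a mean of 0.184 against 0.182, in a bin of Gm20388. Olfactory bulb was highest in the bins of Nrxn3 (0.289, 0.291 and 0.283 against 0.213, 0.225 and 0.203 in cortex) and of the synaptic scaffold Dlg2 (0.253, 0.260 and 0.246 against 0.221, 0.232 and 0.204). In Ptprd 5hmC could be read at 2 places. In cerebellum it was 0.0575 ± 0.00112 in the bin nearer to the 5′ end and 0.171 ± 0.00626 in the one nearer to the 3′ end, whereas cortex had 0.207 ± 0.0117 and 0.244 ± 0.0155, and olfactory bulb had 0.133 ± 0.00364 and 0.164 ± 0.00579. In Lsamp the same pair of values was 0.13 ± 0.00278 and 0.193 ± 0.00494 in cerebellum and 0.222 ± 0.0155 and 0.232 ± 0.0142 in cortex. The genes named for 5hmC were singled out after their values had been seen. Gm20388, which holds 4 of the 21 bins, is a model that reads through many other genes. The bins under Fgfr2 lie inside it only by the GENCODE model, as its RefSeq span is shorter than a bin of 1 Mb.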

How the data were processed

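5mC (oxBS-seq, 7 libraries) and 5hmC (TAB-seq, 9 libraries) were read from the deposited tables, which hold the fraction of modified CpG signal per bin of 100 kb and 1 Mb as the authors computed it. The submitters' processing notes name Bismark and mm10, and how sites were combined into a bin is not given in the sources used here. No read counts are in these tables, so the depth behind a bin is unknown, and the study's text gives an average coverage per tissue. Groups came from the labels. The labels give technical replicates, whereas the study's methods state independent mice, so p-values measure the spread between these libraries. Same-numbered libraries had correlations of their deviations between -0.0838 and 0.0342, and the libraries were treated as unpaired. These correlations cannot show whether libraries of the same number came from the same mouse.

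Autosomal bins with levels above 0 and below 1 in all 7 libraries were kept. Genes came from GENCODE M21, and 212 of 218 had a RefSeq gene (196 within 100 kb of the same span). Start and end are the bins centred in the first and in the last of 3 equal parts of a gene. Gene means and bins were fitted as log2(level/(1 - level)) by limma 3.58.1 (R 4.3.3), and start minus end on the deposited fraction scale, over all 273 genes with at least 4 bins, or all 24011 bins, with Benjamini-Hochberg adjustment. The main fits had no replicate block. Per-library means were compared by two-sided exact permutation tests and against 0 by sign-flip tests. The fits were tested on simulated data with differences between cerebellum and cortex in 60 of 273 genes or 200 of 24011 bins. The noise was normal with the same pooled SD for every gene or bin. In the real fit the SE of start minus end, cerebellum against cortex, lay between 0.00822 and 0.0171. The rates below hold for the simulated setting only. A gene difference of 0.5 (log2) was recovered in 100% and one of 0.2 in 50%. A change in start minus end was recovered in 90% at 0.05 and in 0% at 0.02. A bin difference of 0.5 (log2) was recovered in 65.5% and one of 0.2 in 0%. At the larger steps false calls numbered 3 for genes, 1 for start minus end and 6 for bins. Python 3.11.15, numpy 2.4.6, pandas 2.3.3 and matplotlib 3.10.9 were used.

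The genes named were, by rule, the 8 with the largest start minus end in each direction among those that passed with the same sign in 7 libraries; for each pair of tissues the 4 largest rises and falls of the mean level and the 3 largest differences of start minus end in each direction, with no overlap of libraries; the 3 most and least even genes; the 3 highest and lowest; 2 bins per pair and direction; up to 4 members per gene list; and the 5 longest. The genes, lists and tests were chosen with earlier results of these data known. Windows that overlapped an annotated exon were passed over for the next densest. Transcript starts inside genes and the genes with matching RefSeq models were looked at after the data had been seen. Alternatives were other divisions of the gene, weights, scales, covariates, sets of genes and bins, centring, and leaving out each library. RNA-seq and the other deposited measurements were not used here.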

Additional observations from a re-analysis of the deposited data

Results flagged for a closer look

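The following results were flagged for a difference between tissues, and no explanation was weighed. Those for genes passed a limma test of the difference itself, whereas the last rests on libraries that did not overlap. Start minus end differed between olfactory bulb and cortex in 53 long genes, between cerebellum and cortex in 93 and between cerebellum and olfactory bulb in 74 (limma, adjusted p under 0.05). These were 24.3%, 42.7% and 33.9% of the long genes, against 24.5%, 46.9% and 35.9% of all genes tested.

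For olfactory bulb minus cortex the largest differences of start minus end were 0.172 in Fgf12, 0.119 in Elmo1 and 0.110 in Ntm, and -0.128 in Auts2, -0.103 in Nav2 and -0.0734 in Hdac9. For cerebellum minus cortex they were 0.231 in Nrxn3, 0.205 in Ntm and 0.196 in Nbea, and -0.172 in Anks1b, -0.143 in Ryr2 and -0.129 in Syne1. For cerebellum minus olfactory bulb they were 0.293 in Nrxn3, 0.171 in Nbea and 0.138 in Smyd3, and -0.230 in Anks1b, -0.166 in Fgf12 and -0.165 in Syne1.

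The level inside long genes relative to the other bins was above 0 in both cerebellum libraries and below 0 in all libraries of cortex and olfactory bulb. The difference was 0.0282 between cerebellum and cortex and 0.0217 between cerebellum and olfactory bulb. The exact permutation test gave the smallest p its design allows, 0.1 and 0.33, and so could not pass at 0.05.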

How the results depend on the processing

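The mean start minus end (0.00263) was -0.00702 with GC content and CpG sites as covariates and -0.00369 as a median, and no longer passed with bins that touch no second gene (0.00160) or, chosen after seeing the data, genes with a matching RefSeq model (0.000683). Leaving out 1 library gave 0.00221 to 0.00327. Long genes minus other bins was -0.00274 as a median, -0.0586 against bins without a gene, -0.0214 with the covariates and 0.0157 against shorter genes, and -0.000888 to 0.00414 with 1 library left out, below 0 without either cerebellum library. The tissue difference in start minus end was -0.000696 between cerebellum and cortex for the first against the last of 5 equal parts. Between cerebellum and olfactory bulb it was 0.000389 for 2 equal parts, 0.00240 with equal weight per bin, 0.00546 in genes of at least 1 Mb and 0.00263 as a median, and -0.000726 to 0.000568 with 1 library left out. The share of variance between genes in cortex, olfactory bulb and cerebellum was 68.4%, 72.0% and 66.4% in bins without a second gene, 55.7%, 60.7% and 58.2% in genes of at least 1 Mb, and 67.1%, 72.7% and 65.6% in genes with a matching RefSeq model, and 66.6% in cerebellum on the log2 ratio scale. The tissue differences of 5hmC with each library centred were 0.00166, 0.0137 and 0.0120, for olfactory bulb minus cortex, cerebellum minus cortex and cerebellum minus olfactory bulb. The causes were not tested.

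With 1 library left out, the genes whose start minus end differed numbered 22 to 56 for olfactory bulb against cortex (22 and 30 without olfactory bulb replicate 1 or 2) and 56 to 100 for cerebellum against cortex (61 and 56 without cerebellum replicate 1 or 2), where a single library was left and assumed to vary like the others. The bins that differed numbered 494 to 955 (494 and 553 without olfactory bulb replicate 1 or 2) for olfactory bulb against cortex and 712 to 1231 for cerebellum against olfactory bulb (712 without cerebellum replicate 1). Centring gave 599 bins for olfactory bulb against cortex, 58.6% of them higher (background 8.85% of all bins higher and 10.5% lower). With a replicate block by the numbers in the labels, the difference in start minus end was 0.00506, 0.00498 and -0.0000789, 160 genes differed between start and end (157 shared with the 171), and start minus end differed between tissues in 44, 96 and 80 genes (39, 89 and 73 shared), so single genes gained or lost the call while the counts stayed within 1.5 times. For the fits without a library or with a block, no share over all genes or bins is given here. Those counts therefore do not show whether a change was particular to long genes. All 975 repeats of the tests of named genes kept their direction and side of the threshold. The named genes were picked for the largest values in the same libraries. Such an outcome was therefore nearly fixed in advance and says nothing of the other genes. Read depth limits the precision but could not be weighed, since only fractions were given.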
